A study of Mus musculus with 18 samples.

Results

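The glutathione and thioredoxin systems keep the thiols of the cell reduced, and 10 genes of these systems and of the NRF2 program that regulates many of them were examined in mouse skeletal muscle after administration of the beta-adrenergic receptor agonist clenbuterol. The members, chosen by gene name, were *Srxn1*, *Prdx1*, *Txnrd1*, *Gclc*, *Gclm*, *Slc7a11*, *Gsr*, *Nqo1*, *Hmox1* and *Nfe2l2*. Earlier results of these data were known when they were chosen, so member counts set beside those of all probe sets are a description only. Every probe set that the platform annotation assigned to a member was taken, which gave 24 of the 45037 probe sets on the MOE430A and MOE430B GeneChips. Of these, 21 were bright enough to be tested, among 33752 tested probe sets, and every member had at least 1 tested probe set. All 5 *Prdx1* probe sets carried a second symbol, *Gm21399*, a pseudogene, so they are written as *Prdx1/Gm21399* and cannot be assigned to 1 gene.

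All mice were C57BL/6J males, 3 to 5 wk of age. All were injected intraperitoneally for 10 days, and the groups differed in how many of these injections held clenbuterol at 1 mg/kg in place of vehicle: none in C, the last 1 in 24 h, and every one in 10 D. In every group the muscle was collected 24 hours after the last injection. RNA came from the gracilis muscle (gracillus in the labels), and each group was represented by 3 pools of 3 mice, each hybridized once to each chip, for 18 arrays in all. Mice were kept 3 per cage, and whole cages were assigned to a treatment. The mice on the arrays were picked for a large difference in blood urea nitrogen and weight gain between the treated groups and C. As a result, they are not a random draw from each treatment. The spread between pools is therefore the only error available, and it averages over the mice inside each pool. In whole muscle, a change in how many cells of a type are present and a change in RNA per cell cannot be told apart.

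Peroxiredoxins reduce hydrogen peroxide with a reactive cysteine, thioredoxin returns them to the reduced state, and thioredoxin reductase (*Txnrd1*) recharges thioredoxin with NADPH. When a peroxiredoxin is oxidised too far, sulfiredoxin (*Srxn1*) repairs it. Glutathione is built from cysteine, which enters cells as cystine through the transporter *Slc7a11*, by glutamate-cysteine ligase, whose catalytic subunit is *Gclc* and whose modifier subunit is *Gclm*, and oxidised glutathione is reduced again by *Gsr*. The transcription factor NRF2, encoded by *Nfe2l2*, binds antioxidant response elements together with small Maf proteins and is known to drive most of these genes, including the quinone reductase *Nqo1* and the haem-degrading enzyme *Hmox1*.

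The promoters of *Srxn1* and *Prdx1* are shown because they were the member promoters that held the full NRF2 and small Maf motif, TGANTCAGC. RefSeq promoter sequences on GRCm38.p6 were at hand for 7 of the 10 members, at 9 start sites. The 250 bases before the start are given on the strand of the gene, at chr2:152105274-152105523 on the plus strand for *Srxn1* and at chr4:116685349-116685598 on the plus strand for *Prdx1*. Capitals mark every match to TGANTCAGC and to the AP-1 motif TGANTCA, which lies inside it, on either strand.
Srxn1: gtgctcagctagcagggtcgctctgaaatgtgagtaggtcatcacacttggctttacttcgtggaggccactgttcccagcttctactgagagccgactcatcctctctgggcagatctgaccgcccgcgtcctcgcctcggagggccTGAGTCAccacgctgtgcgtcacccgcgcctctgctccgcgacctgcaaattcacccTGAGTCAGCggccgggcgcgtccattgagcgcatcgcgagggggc
Prdx1: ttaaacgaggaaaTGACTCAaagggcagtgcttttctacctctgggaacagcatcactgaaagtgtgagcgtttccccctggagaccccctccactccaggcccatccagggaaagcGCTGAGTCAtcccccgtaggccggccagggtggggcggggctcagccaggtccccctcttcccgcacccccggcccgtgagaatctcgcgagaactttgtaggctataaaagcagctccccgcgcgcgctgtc

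In the *Srxn1* window the match to TGANTCAGC began 45 bases before the start, and a further AP-1 match began 102 bases before it. In the *Prdx1* window the match lay on the opposite strand 133 bases before the start, with a further AP-1 match 237 bases before it. Over 32851 mouse promoter windows of the same length, 1.02% held TGANTCAGC and 6.75% held TGANTCA. The antioxidant response element core, TGACNNNGC, was in 10.2% of windows, and among the members it was found once each for *Prdx1*, *Gclm*, *Nfe2l2* and 1 of the 3 *Txnrd1* starts. It was not found for *Srxn1*, whose site TGAGTCAGC has G where the core requires C. The cAMP response element TGACGTCA, found in 1.55% of windows, was in none of the 9 member windows. These matches describe letters in a short window only.

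Levels are given as the MAS 5.0 signal divided by the median signal of the same array, so that a level of 1 is the signal of the median probe set. On this scale the 24 h pool 2 and the 10 D pool 2 stood apart from the other pools. Within groups, log2 levels on MOE430A correlated at 0.826 to 0.888 in pairs that held 1 of these pools and at 0.925 to 0.952 in all other pairs, and on MOE430B at 0.746 to 0.776 against 0.821 to 0.843. Their median signals, 35.7 and 33.6 on MOE430A, were the lowest of their groups, although the C pool 1 median was lower still at 30.8. Muscle markers were high in every pool, with levels of 169 to 393 for *Acta1*, skeletal alpha-actin, and 177 to 421 for *Ckm*, muscle creatine kinase.

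*Srxn1* was the only member whose mRNA abundance rose past the threshold after clenbuterol. The probe set that led by mean log2 level over all 9 pools, 1451680_at, had levels of 0.74, 1.61 and 1.13 in the C pools, 7.59, 4.19 and 13.1 in the 24 h pools, and 4.26, 1.59 and 2.94 in the 10 D pools. All 24 h pools were above all C pools, whereas the 10 D pool 2 lay inside the range of the C pools. The choice of this probe set used the treated pools too, since within C 1426875_s_at was brighter, with a mean level of 2.19 against 1.16. Probe set 1451680_at averaged 1.16 ± 0.433 in C pools, 8.3 ± 4.5 in 24 h pools and 2.93 ± 1.34 in 10 D pools (SD, n = 3 each). At 24 h *Srxn1* was 6.77-fold higher than in C, a log2 change of 2.76 (SE 0.48, 95% confidence interval 1.7 to 3.82, limma adjusted *P* = 0.068), which passed the false discovery rate of 10%. The call was lost without the C pool 1, 2 or 3 (limma adjusted *P* = 0.29, 0.18 and 0.22), without the 24 h pool 1 or 3 (0.18 and 0.21) and without the 10 D pool 3 (0.13). Without pool 2 of both treated groups, a setting chosen after seeing the data, the log2 change was 3.18 (limma adjusted *P* = 0.006).

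At 10 D the same probe set stood 2.45-fold above C, a log2 change of 1.3 (SE 0.48, 95% confidence interval 0.23 to 2.36), which did not pass (limma adjusted *P* = 1.0). Between 10 D and 24 h its log2 difference was -1.46 (SE 0.48, limma adjusted *P* = 0.71), which did not pass either. The 10 D mean therefore lay between those of C and 24 h without being separable from either one by these tests.

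**Figure D1:**
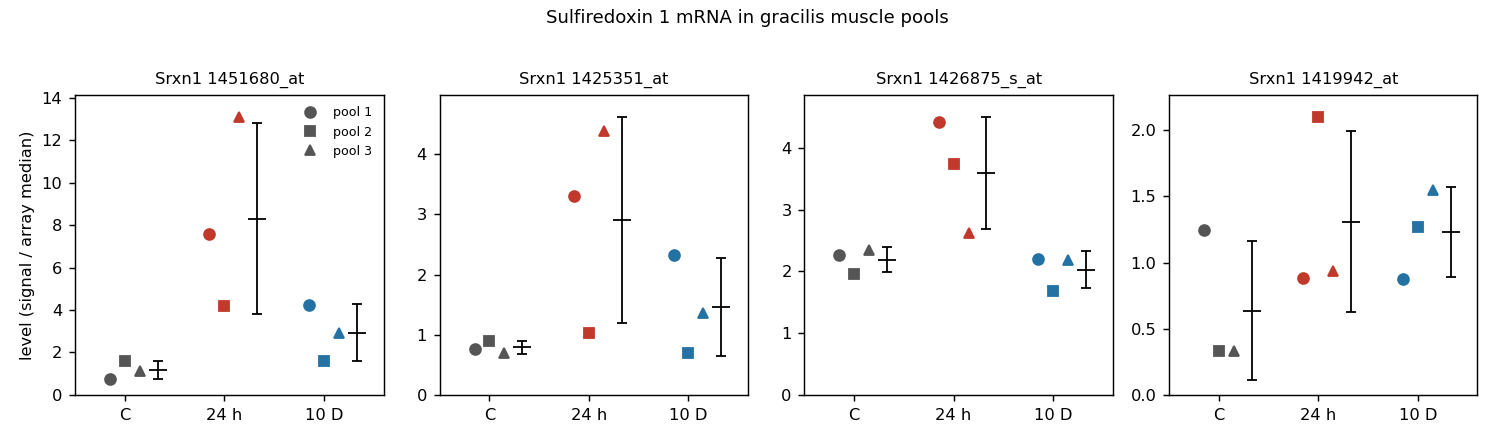
Levels of the 4 *Srxn1* probe sets (signal divided by the array median, linear axes from 0) in the C, 24 h and 10 D pools. Points are pools, marked by pool number, and bars are means with SD (n = 3). On 1451680_at the 24 h pools sit between 4.19 and 13.1 and the C pools between 0.74 and 1.61.

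The other 3 probe sets of *Srxn1* did not pass. Probe set 1425351_at was designed from the same cDNA record as 1451680_at and so is not an independent measurement. It had levels of 0.763, 0.904 and 0.701 in the C pools, 3.31, 1.03 and 4.38 in the 24 h pools and 2.32, 0.696 and 1.36 in the 10 D pools. All its 24 h pools were again above all C pools, with pool 2 only just so (log2 change 1.65, SE 0.55, limma adjusted *P* = 0.39). Without both treated pools 2 this probe set was called as well, at 2.28 (limma adjusted *P* = 0.011). Probe set 1426875_s_at, whose suffix marks probes shared between related transcripts, had 2.26, 1.96 and 2.34 in the C pools, 4.41, 3.74 and 2.62 in the 24 h pools and 2.2, 1.69 and 2.19 in the 10 D pools. Its 24 h pools also lay above every C pool, by less (log2 change 0.69, SE 0.25, limma adjusted *P* = 0.45), and its 10 D pools overlapped those of C.

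The fourth, 1419942_at, followed another order. Its levels were 1.25, 0.329 and 0.334 in the C pools, 0.887, 2.1 and 0.933 in the 24 h pools and 0.877, 1.27 and 1.55 in the 10 D pools, so that the groups overlapped and the C pool 1 exceeded 2 of the 3 pools at 24 h. The log2 change was 1.22 at 24 h (SE 0.54, limma adjusted *P* = 0.58) and likewise 1.22 at 10 D (limma adjusted *P* = 1.0). Over the 9 pools, log2 levels of 1451680_at correlated at 0.918 with 1425351_at, at 0.566 with 1426875_s_at and at 0.259 with 1419942_at, all within the same hybridizations. Pool 2 was the lowest 24 h pool on 1451680_at and 1425351_at and the highest on 1419942_at.

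By the same measure, the probe sets of other genes most like 1451680_at over the 9 pools, among 26740 compared, were those of *Smim7* (r = 0.974), *Ddit4l* (r = 0.972) and *Rnf128* (r = 0.969). *Rnf128*, an E3 ubiquitin ligase, had levels of 3.0, 3.2 and 4.08 in the C pools, 18.9, 12.3 and 22.8 in the 24 h pools and 11.4, 5.23 and 7.06 in the 10 D pools. It rose at 24 h by a log2 change of 2.36 (limma adjusted *P* = 0.026), and as with *Srxn1* its lowest treated values were in pool 2 of each treated group. *Smim7*, at 0.8, and *Ddit4l*, at 0.96, did not pass at 24 h (limma adjusted *P* = 0.31 and 0.11). These genes were chosen for their likeness over pools that share the treatment and the arrays, so the correlations are a description.

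Across the 21 tested member probe sets, 1 was called at 24 h relative to C, that of *Srxn1*, against 0.456% of all tested probe sets called in either direction and 0.329% called higher. At an unadjusted *P* below 0.05 there were 5, against 8.55% of all tested probe sets. All 5 were higher at 24 h, against 5.0% of all, and they were the 4 *Srxn1* probe sets and 1 of *Gclc*. All 24 h pools were above all C pools for 5 member probe sets and below them for 0, against 9.60% and 7.23% of all tested probe sets. The log2 change was above 0 for 16 of the 21, against 51.8% of all, with a median of 0.17 and a range of -0.24 to 2.76, and over all tested probe sets the median was 0.02. The 4 probe sets of *Srxn1* and the 5 of *Prdx1/Gm21399* were all above 0 at 24 h. The 21 probe sets came from 10 genes read on the same arrays. Probe sets of the same gene are repeats, so these counts and the member counts that follow are not counts of independent genes.

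At 10 D relative to C, 0 members were called by limma, as were 0% of all tested probe sets. An unadjusted *P* below 0.05 was reached by 2 members, both probe sets of *Srxn1*, against 4.56% of all. All 10 D pools were above all C pools for 2 member probe sets, 1 each of *Gclc* and *Nqo1*, and below them for 0, against 5.76% and 4.52% of all. The member changes at 10 D ran from -0.92 to 1.3 with a median of -0.07, against 0.01 over all tested probe sets, and 9 were above 0, against 51.6% of all.

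At 10 D relative to 24 h, 0 members were called by limma, against 0.0504% of all, and 3 reached an unadjusted *P* below 0.05, against 5.48%. These were 2 *Srxn1* probe sets and 1 of *Gclc*, each lower at 10 D. All 10 D pools were above all 24 h pools for 1 member probe set and below them for 3, against 4.17% and 5.10% of all. The median of that difference was -0.27 over the members and -0.01 over all tested probe sets, and 5 of 21 were above 0, against 48.9% of all. The 3 comparisons share their pools, so they are not independent of each other. In the F test over the 3 groups, 0 members were called by limma, against 0.216% of all, and 4 reached an unadjusted *P* below 0.05, against 6.62%.

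**Figure D2:**
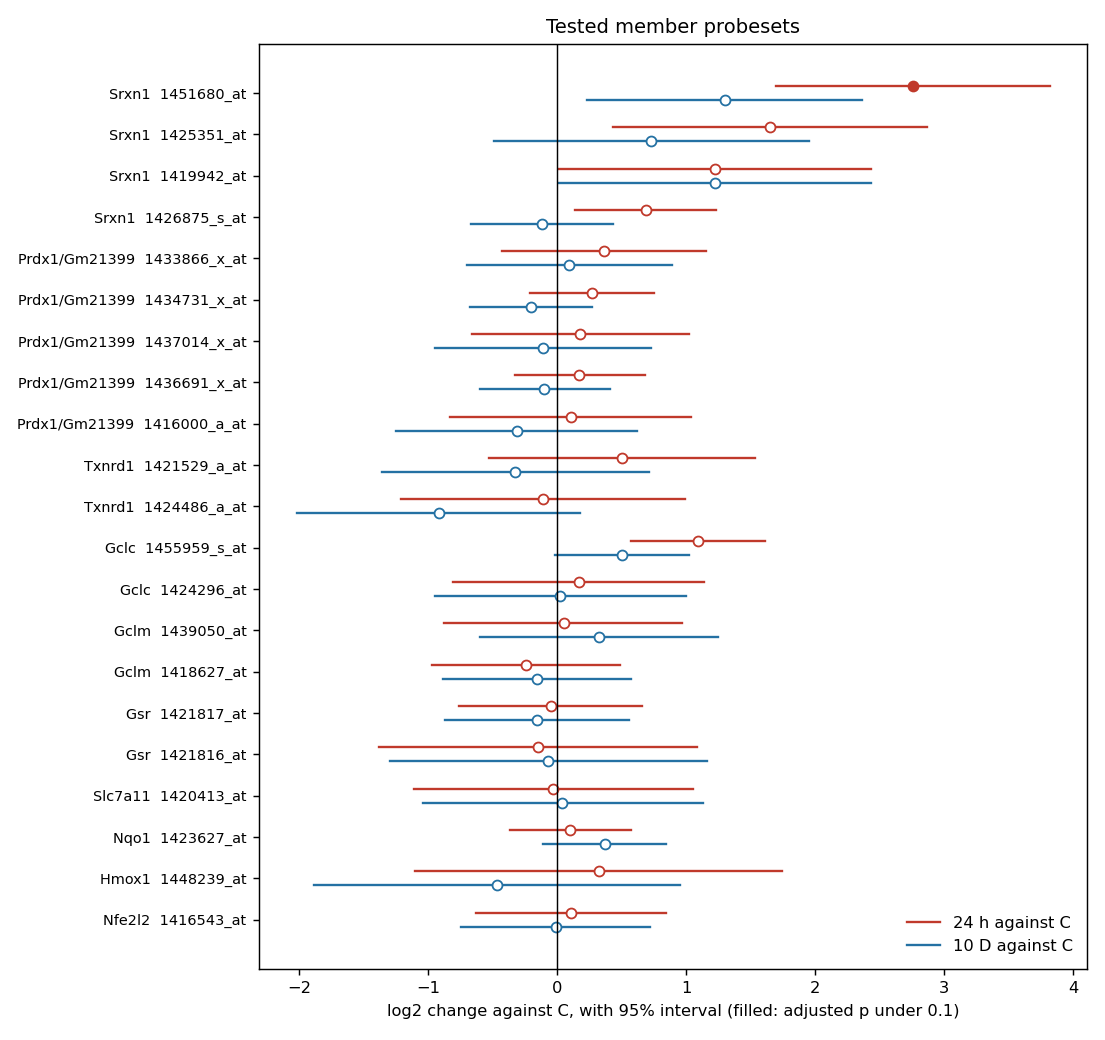
Log2 change of each of the 21 tested member probe sets at 24 h and at 10 D relative to C, with 95% confidence intervals. Filled points passed the false discovery rate of 10%, and the only filled point is *Srxn1* 1451680_at at 24 h, at 2.76.

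None of the 5 *Prdx1/Gm21399* probe sets passed, where *Prdx1* encodes an abundant cytosolic peroxiredoxin. The brightest over all pools, 1436691_x_at, had levels of 68.7, 62.2 and 85.6 in the C pools, 86.0, 84.9 and 71.5 in the 24 h pools and 52.0, 75.4 and 76.3 in the 10 D pools. The groups overlapped, and the 95% confidence interval of the log2 change at 24 h was -0.33 to 0.68 around 0.17 (limma adjusted *P* = 0.89). The 5 probe sets spanned 0.11 to 0.36 at 24 h and -0.31 to 0.09 at 10 D on the log2 scale, and none passed. On 1434731_x_at alone, all 24 h pools were above all C pools.

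The *Prdx1/Gm21399* probe sets did not place pool 2 alike. On 1416000_a_at pool 2 was the lowest of both treated groups, with 31.7, 33.7 and 41.4 in the C pools, 50.7, 23.2 and 47.1 in the 24 h pools and 45.4, 14.8 and 34.5 in the 10 D pools. On 1433866_x_at it was the highest, with 10.5, 19.5 and 13.9 in the C pools, 14.8, 25.4 and 16 in the 24 h pools and 10.5, 24.3 and 13.6 in the 10 D pools. Among the 21 member probe sets, pool 2 was lowest in both treated groups for 8 and highest in both for 2, against 23.3% and 19.1% of all tested probe sets. Without the pools 2 the 24 h log2 changes of these probe sets were 0.47 and 0.12, against 0.11 and 0.36 with them.

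*Txnrd1* had levels of 4.26, 5.29 and 4.28 in the C pools, 8.85, 3.08 and 10.0 in the 24 h pools and 6.41, 2.52 and 3.03 in the 10 D pools on 1421529_a_at. The 24 h pools 1 and 3 were well above C and pool 2 was below it, so the log2 change of 0.5 had a wide 95% confidence interval of -0.53 to 1.53 (limma adjusted *P* = 0.83). Without both treated pools 2 it was 1.04 and still did not pass (limma adjusted *P* = 0.17). The second probe set, 1424486_a_at, gave -0.11 at 24 h and -0.92 at 10 D (SE 0.49), and neither passed.

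*Gclc*, the catalytic subunit of the enzyme that limits glutathione synthesis, came next after *Srxn1*. Its probe set 1455959_s_at had levels of 0.89, 0.895 and 1.32 in the C pools, 2.04, 2.05 and 2.42 in the 24 h pools and 1.46, 1.53 and 1.33 in the 10 D pools. The 24 h pools agreed closely with one another, pool 2 included, and lay above every C pool, and the 10 D pools lay between, each above the highest C pool. It averaged 1.03 ± 0.247 in C pools, 2.17 ± 0.213 in 24 h pools and 1.44 ± 0.0996 in 10 D pools (SD, n = 3 each). The 24 h value was 2.13-fold that of C, a log2 change of 1.09 (SE 0.24, 95% confidence interval 0.57 to 1.61), which missed the threshold (limma adjusted *P* = 0.13). At 10 D the log2 change relative to C was 0.5 (SE 0.24, limma adjusted *P* = 1.0), and relative to 24 h it was -0.59 (limma adjusted *P* = 0.86).

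The other *Gclc* probe set, 1424296_at, did not show this order. Its levels were 1.42, 1.52 and 1.43 in the C pools, 2.42, 0.927 and 1.96 in the 24 h pools and 2.73, 0.902 and 1.31 in the 10 D pools. The 3 C pools were nearly equal, while in each treated group pool 1 was above them and pool 2 below them. The log2 change at 24 h was 0.17 (SE 0.44, 95% confidence interval -0.81 to 1.14, limma adjusted *P* = 0.95) and at 10 D 0.02, so the *Gclc* difference rests on 1 of 2 probe sets. Without both treated pools 2 the 24 h log2 change was 0.58 on 1424296_at (limma adjusted *P* = 0.53) and 1.13 on 1455959_s_at (limma adjusted *P* = 0.11).

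*Gclm*, the modifier subunit, had levels of 3.19, 2.99 and 2.76 in the C pools, 3.81, 2.27 and 1.84 in the 24 h pools and 2.93, 1.78 and 3.61 in the 10 D pools on 1418627_at. The groups overlapped, and the log2 change was -0.24 at 24 h and -0.16 at 10 D (SE 0.33, limma adjusted *P* = 0.89 and 1.0). On the MOE430B probe set 1439050_at they were 0.05 and 0.32 (SE 0.42). The 2 subunits of glutamate-cysteine ligase thus gave 24 h values on both sides of 0, and their difference was not tested.

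*Slc7a11*, the cystine transporter, had levels of 0.445, 0.659 and 0.881 in the C pools, 0.871, 0.681 and 0.409 in the 24 h pools and 0.475, 1.29 and 0.461 in the 10 D pools, all close to the array median. The log2 changes were -0.03 and 0.04 (SE 0.49), with full overlap of the groups. *Gsr*, which returns oxidised glutathione to its reduced form, had 2.55, 2.45 and 2.01 in the C pools, 2.88, 1.77 and 2.23 in the 24 h pools and 2.9, 1.29 and 2.42 in the 10 D pools on 1421817_at. Its log2 changes were -0.05 and -0.16 (SE 0.32) on this probe set and -0.15 and -0.07 on 1421816_at.

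**Figure D3:**
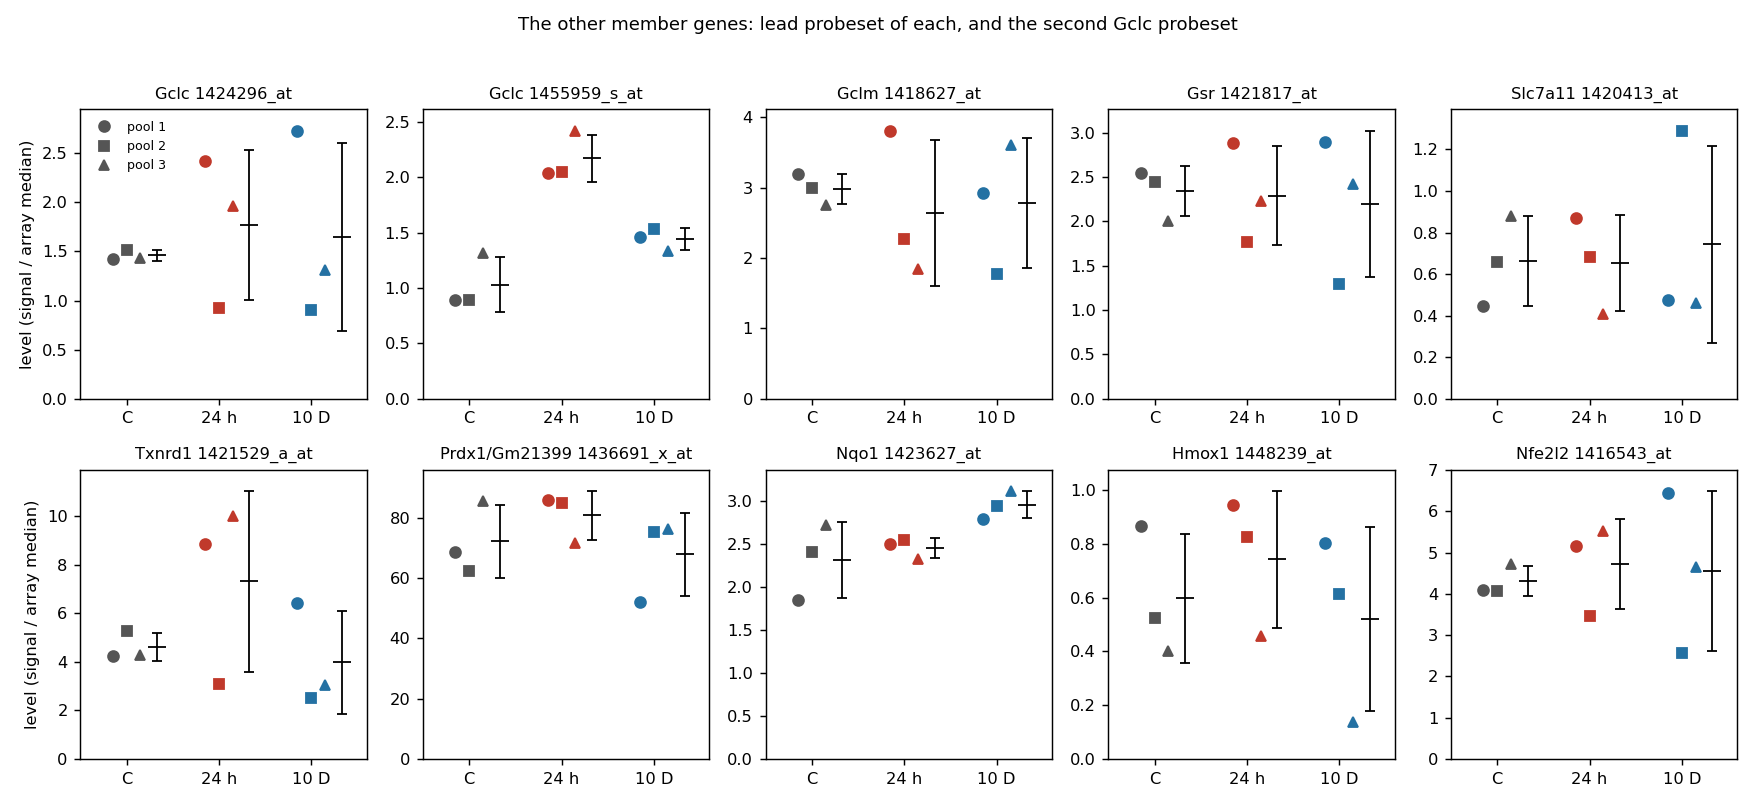
Levels of the other members on their brightest probe set, and of *Gclc* on 1455959_s_at, in the C, 24 h and 10 D pools (signal divided by the array median). Points are pools, marked by pool number, and bars are means with SD (n = 3). The 24 h pools of *Gclc* 1455959_s_at sit between 2.04 and 2.42, above C pools at 0.89 to 1.32, and the 10 D pools of *Nqo1*, at 2.79 to 3.11, are above its C pools at 1.84 to 2.71.

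*Nqo1*, the quinone reductase often used as a readout of NRF2 activity, had levels of 1.84, 2.4 and 2.71 in the C pools, 2.5, 2.54 and 2.32 in the 24 h pools and 2.79, 2.94 and 3.11 in the 10 D pools. The 10 D pools were above every C pool and every 24 h pool, by a small margin. Its log2 changes were 0.1 at 24 h (95% confidence interval -0.37 to 0.57) and 0.37 at 10 D (SE 0.21, 95% confidence interval -0.11 to 0.84), and neither passed. Whether NRF2 activity differed between the groups was not tested.

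*Hmox1*, which opens the haem ring, had levels of 0.867, 0.523 and 0.402 in the C pools, 0.945, 0.824 and 0.458 in the 24 h pools and 0.804, 0.613 and 0.139 in the 10 D pools, below the array median throughout. Its log2 changes were 0.32 and -0.47 with an SE of 0.64, the groups overlapped, and neither passed. *Nfe2l2* itself, which encodes NRF2, had 4.1, 4.08 and 4.72 in the C pools, 5.16, 3.47 and 5.51 in the 24 h pools and 6.44, 2.56 and 4.64 in the 10 D pools. The log2 changes were 0.11 (95% confidence interval -0.63 to 0.84) and -0.01 (SE 0.33), and NRF2 is known to be controlled mainly through the stability of its protein, which arrays do not measure.

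Apart from the *Srxn1* probe sets and *Gclc* 1455959_s_at, the 16 remaining member probe sets ran from -0.24 to 0.5 on the log2 scale at 24 h, 11 above 0, and the lowest unadjusted *P* was 0.24. At 10 D they ran from -0.92 to 0.37, with 5 above 0 and a lowest unadjusted *P* of 0.092. The 3 probe sets too dim to be tested were 1 each of *Txnrd1*, *Slc7a11* and *Nfe2l2*. By pool, the median member log2 level relative to the C mean was 0.44, 0.15 and 0.26 in the 24 h pools, with 21, 12 and 16 of 21 probe sets above that mean. In the 10 D pools it was 0.36, -0.06 and 0.01, with 14, 10 and 11 above it. These per-pool values take in all 21 tested member probe sets, those of *Srxn1* included. The share over all tested probe sets was not counted by pool, so a shift of a whole array cannot be told from one of the members.

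Genes of the same pathways beyond the members were counted on 6 lists, by the brightest tested probe set of each gene. Over 15162 genes, 72 were called higher and 28 lower at 24 h, with 5.74% higher and 3.57% lower at an unadjusted *P* below 0.05 and a median log2 change of 0.03. At 10 D, 0 genes on any of the lists were called by limma. At most 3 genes of a list were higher and at most 1 lower at an unadjusted *P* below 0.05, against 2.86% and 1.66% of all genes. The lists with 3 higher were the other NRF2 targets (10.3% of tested genes) and the ATF4 targets (12.5%). On the list of glutathione synthesis and use, 40 of 48 genes were tested and 0 were called by limma at 24 h, with 2 higher and 5 lower at an unadjusted *P* below 0.05 and a median of -0.16. Those with the smallest *P*-values had lower values at 24 h, without passing: *Chac1*, a glutathione-degrading enzyme (log2 change -2.86, limma adjusted *P* = 0.12), and the glutathione transferases *Gsta4* (-0.98, limma adjusted *P* = 0.25) and *Gstm2* (-0.73, limma adjusted *P* = 0.43).

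*Chac1* had levels of 8.47, 9.24 and 6.4 in the C pools, 0.67, 1.46 and 1.32 in the 24 h pools and 5.06, 1.88 and 14.6 in the 10 D pools, so that every 24 h pool was below every C pool while the 10 D pools scattered widely. On the list of thioredoxins, peroxiredoxins and their partners, 22 of 24 genes were tested and 0 were called by limma at 24 h, with 0 higher and 1 lower at an unadjusted *P* below 0.05 and a median of -0.01. The gene with the smallest *P*-value was *Nxn*, nucleoredoxin, at -0.48 (limma adjusted *P* = 0.53).

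On the list of NRF2 regulators and partners, 19 of 23 genes were tested and 0 were called by limma at 24 h. The median was -0.19, with 7 of the 19 above 0. At an unadjusted *P* below 0.05, 1 was higher and 0 lower. The higher gene was the small Maf gene *Mafk* (log2 change 0.73, SE 0.23, limma adjusted *P* = 0.33). *Gsk3b* (-0.7, limma adjusted *P* = 0.65) and the small Maf gene *Mafg* (-0.52, limma adjusted *P* = 0.69) had lower values, without passing. On the list of other NRF2 target genes, 29 of 38 were tested, 1 was called higher and 0 lower, and the median was -0.09. The gene that rose was *Mt2*, a metallothionein that binds zinc and is also induced by metals and glucocorticoids, with levels of 4.77, 4.04 and 7.28 in the C pools, 34.7, 21.9 and 18.3 in the 24 h pools and 9.89, 6.5 and 11 in the 10 D pools. Every 24 h pool was above every C pool and every 10 D pool, and the log2 change at 24 h was 2.21 (SE 0.32, limma adjusted *P* = 0.032), a call that was lost without the C pool 1 or 2 or the 24 h pool 1 (limma adjusted *P* of 0.19, 0.18 and 0.1). On the list of superoxide and NADPH oxidase genes, 15 of 22 were tested, 0 were called by limma, 0 reached an unadjusted *P* below 0.05 at 24 h, and the median was -0.14.

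ATF4, the transcription factor of the amino acid response, is known to drive *Slc7a11* and other genes that also serve glutathione synthesis. Of 27 genes on its list, 24 were tested, 1 was called higher and 0 lower at 24 h, with 6 higher and 2 lower at an unadjusted *P* below 0.05 and a median of 0.2. The called gene was *Slc7a5*, a large neutral amino acid transporter, with levels of 0.153, 0.179 and 0.25 in the C pools, 2.22, 3.2 and 2.85 in the 24 h pools and 0.879, 1.14 and 1.67 in the 10 D pools. The 3 groups did not overlap, and *Slc7a5* rose by a log2 change of 3.84 at 24 h (SE 0.33, limma adjusted *P* = 0.0026). Its log2 change of 2.65 at 10 D just missed the threshold (SE 0.33, limma adjusted *P* = 0.11). In every C pool its signal was below that needed for testing, so it was tested through its brighter treated pools. The size of its change therefore rests on dim C values. *Ppp1r15a*, a phosphatase subunit of the stress response, had a log2 change of 1.49 at 24 h without passing (limma adjusted *P* = 0.14). The 2 lower genes were *Chac1*, which is on this list too, at -2.86 (limma adjusted *P* = 0.12), and *Ddit4* at -1.07 (limma adjusted *P* = 0.26).

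**Figure D4:**
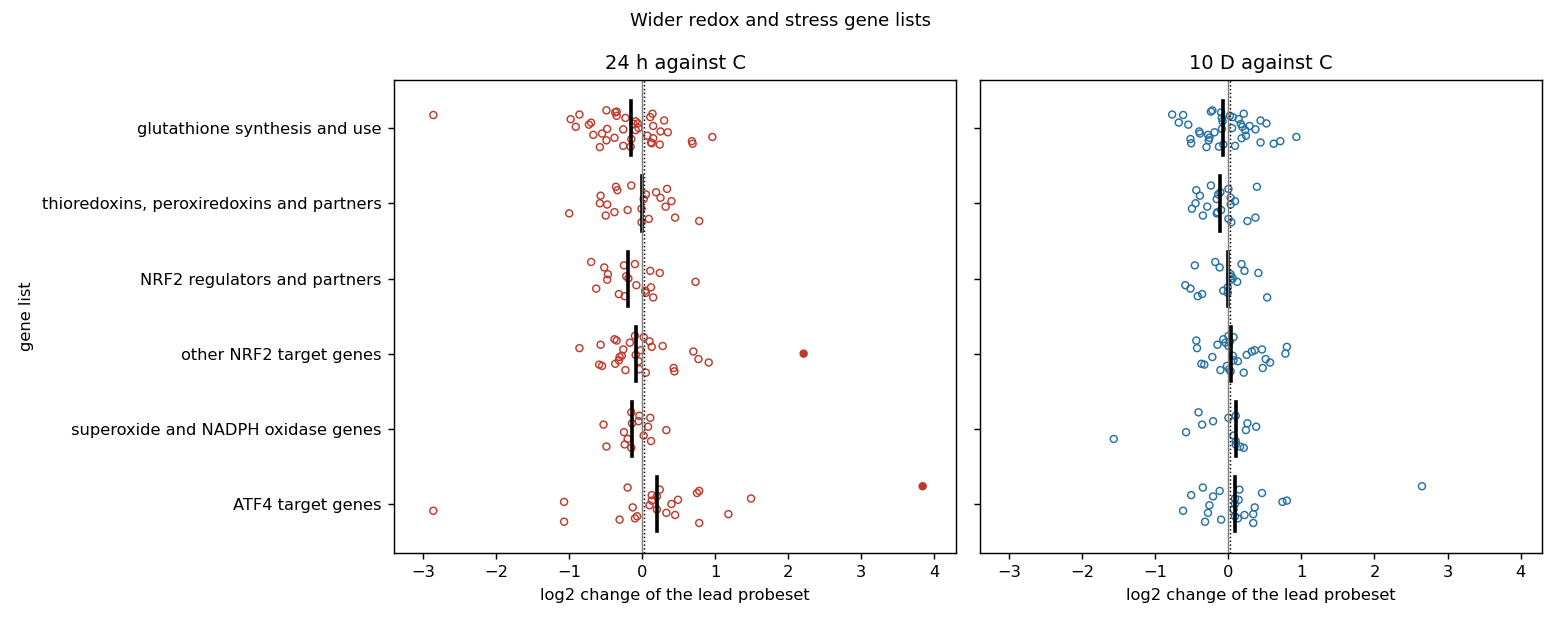
Log2 change relative to C of every tested gene on each pathway list, at 24 h and at 10 D, with list medians as bars and the median of all genes as a dotted line. Filled points passed the false discovery rate of 10%, and they are, at 24 h, *Mt2* at 2.21 among the other NRF2 targets and *Slc7a5* at 3.84 among the ATF4 targets.

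Leukocytes, fat, vessels and skin can all contribute RNA to dissected muscle, and their markers were read in the same pools. The summed level of the macrophage markers, 17 of 18 tested, was 34.3 to 41.5 in C, 32.7 to 49.9 at 24 h and 35 to 41.6 at 10 D, with a median log2 change of 0.05 at 24 h. *Cd68*, a macrophage lysosomal protein, had levels of 1.1, 0.955 and 0.911 in the C pools, 1.87, 1.36 and 2.23 in the 24 h pools and 0.981, 1.02 and 0.7 in the 10 D pools, without passing (log2 change at 24 h 0.85, limma adjusted *P* = 0.36). *Adgre1*, which encodes F4/80, had overlapping levels of 2.6, 2.55 and 1.95 in the C pools, 2.15, 3.3 and 3.23 in the 24 h pools and 2.43, 3.54 and 2.77 in the 10 D pools.

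The summed neutrophil markers, 6 of 10 tested, were 5.43 to 6.49 in C, 7.4 to 11 at 24 h and 6.0 to 8.1 at 10 D. All 24 h sums were above all C sums, and the highest 24 h sum, 11, was in pool 2. Only *S100a8* had every 24 h pool above every C pool, and its highest level was in the 24 h pool 1. The other tested neutrophil markers overlapped between C and 24 h, so the separation of the sums does not describe the list as a whole. Of the 6 genes 4 were above 0 at 24 h, and *Elane*, at -0.54, and *Ngp*, at -0.03, were not. *S100a8*, a calprotectin subunit, had levels of 0.205, 0.0354 and 0.196 in the C pools, 2.78, 2.07 and 2.05 in the 24 h pools and 1.36, 1.47 and 0.468 in the 10 D pools (log2 change at 24 h 4.34, SE 0.68, limma adjusted *P* = 0.044). That call was lost without the C pool 1 or 3 or any 1 of the 24 h pools (limma adjusted *P* of 0.11 to 0.16). In every C pool the *S100a8* signal was below that needed for testing, so it too was tested through its brighter treated pools. The partner of *S100a8*, *S100a9*, had a log2 change of 1.22 with an SE of 1.23 (limma adjusted *P* = 0.85). The adipocyte markers, 7 of 10 tested, had a median of -0.49 at 24 h with 2 of 7 above 0, and summed levels of 107 to 153 in C, 101 to 154 at 24 h and 100 to 123 at 10 D. Among them *Adipoq*, adiponectin, had levels of 21.2, 18.8 and 25.7 in the C pools, 26.7, 7.9 and 7.64 in the 24 h pools and 28.8, 4.13 and 11.1 in the 10 D pools (log2 change at 24 h -0.89, limma adjusted *P* = 0.77). *Cidea*, a lipid droplet protein, went the other way, with levels of 0.104, 1.34 and 0.178 in the C pools, 2.38, 1.6 and 1.71 in the 24 h pools and 1.41, 1.15 and 1.13 in the 10 D pools, without passing (log2 change at 24 h 2.68, limma adjusted *P* = 0.27). In the C pools 1 and 3 the *Cidea* signal was below that needed for testing. Over all genes, 52.9% were above 0 at 24 h. Fibroblast markers were above 0 at 24 h for 1 of 8 genes, with a median of -0.31, and muscle fibre markers for 0 of 16, with a median of -0.25. On both lists 0 genes were called by limma or reached an unadjusted *P* below 0.05. The summed muscle fibre levels overlapped, at 2720 to 4150 in C and 2270 to 3020 at 24 h. The highest was in the C pool 1, whose array median on MOE430A, the divisor of these levels, was the lowest at 30.8. Endothelial markers had higher values at 24 h for 8 of 9 genes, with a median of 0.15 and 0 called by limma. At an unadjusted *P* below 0.05, 2 were higher, against 5.74% of all genes. Skin markers had lower values for 6 of 6 tested genes, with a median of -1.33 and summed levels of 5.15 to 23.5 in C, 3.82 to 6.18 at 24 h and 4.95 to 10.8 at 10 D. The highest skin sum was that of the C pool 3, while the C pool 1, at 5.15, lay inside the 24 h range. *Krt5*, for example, had levels of 0.127, 0.764 and 4.82 in the C pools, so the skin difference leaned on the C pool 3. Values of 0 were replaced before levels were taken and no detection calls were given, so these levels cannot show whether a cell type was absent. The part of these cell types in the *Srxn1* change was not tested.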

How the data were processed

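Total RNA of gracilis muscle, in 3 pools of 3 mice per group (27 mice), was hybridized by the authors to MOE430A and MOE430B GeneChips and quantified with MAS 5.0. The deposited values were linear probe set signal intensities, without detection calls. Signals of 0 (18 in all) were set to 0.05, each signal was then divided by its array median, and log2 was taken. The second copy of 100 probe sets present on both chips was left out. Symbols came from the platform annotation: 34945 probe sets had 1 symbol, 932 several and 9160 none. Tests were run on probe sets whose mean log2 signal reached the chip's 25th percentile (signal 14.1 on MOE430A and 6.97 on MOE430B) with limma 3.58.1 in R 4.3.3, fitting the 3 groups per chip (lmFit, eBayes with an intensity trend, 6 residual degrees of freedom) and adjusting *P*-values by Benjamini-Hochberg over both chips. Calls were made at a false discovery rate of 10%. The script was tested on simulated data. The number of arrays limits the precision. The named probe sets were every member probe set, led by the one with the highest mean log2 level over all pools (MOE430A first). They also included each called list gene and otherwise up to 4 per list with the smallest *P* at 24 h, defining markers, and the 3 other genes most correlated with a called member. The members and lists were chosen with earlier results of these data known. Nothing in the labels says that equal pool numbers were paired, and departures from the group means correlated over 0.1 in only 2 of 9 same-numbered pairs on each chip, so pools were treated as unpaired. Alternatives were the scaling, the handling of low values, the filter, the variance model, the adjustment, the replicate block and leaving out pools.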

Additional observations from a re-analysis of the deposited data

Results flagged for a closer look

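*Ddit4*, an inhibitor of mTOR signalling that was counted with the ATF4 targets, lay on opposite sides of C in the treated groups. Its levels on 1428306_at were 3.19, 2.99 and 5.25 in the C pools, 1.97, 2.22 and 1.23 in the 24 h pools and 6.41, 5.65 and 6.49 in the 10 D pools, so that every 24 h pool was below and every 10 D pool above every C pool. The log2 difference between 10 D and 24 h was 1.81 (SE 0.29), and it did not pass the threshold (limma adjusted *P* = 0.12). Relative to C, the log2 change was -1.07 at 24 h (limma adjusted *P* = 0.26) and 0.74 at 10 D (limma adjusted *P* = 1.0).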

How the results depend on the processing

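Over 21 alternative settings, the 24 h log2 change of *Srxn1* 1451680_at ran from 2.35 to 3.18 and was called in 13, with adjusted *P* from 0.006 to 0.29. The call was lost without an intensity trend (0.15), without moderation (0.23), and without the C pools 1, 2 and 3 (0.29, 0.18 and 0.22), the 24 h pools 1 and 3 (0.18 and 0.21) or the 10 D pool 3 (0.13). Member probe sets called at 24 h numbered 0 without the trend or moderation, 2 with a filter at the 50th percentile or adjustment within each chip, and 0 to 2 without 1 pool in turn. *Gclc* 1455959_s_at was called in 3 settings (adjusted *P* = 0.093 with the stricter filter, 0.092 within chip and 0.093 without the 10 D pool 2). Leaving out pool 2 of both treated groups, a setting chosen after seeing the data, gave 2 called probe sets, *Srxn1* 1451680_at (3.18, adjusted *P* = 0.006) and 1425351_at (2.28, adjusted *P* = 0.011). In the F test the member count was 1 with quantile or trimmed mean scaling, 2 without both pools 2, and 0 to 1 without 1 pool in turn. The counts for 10 D relative to C and to 24 h were 0 under all 21 settings. No call reversed, and of the uncalled member values 10, 13 and 9 probe sets changed sign in at least 1 setting at 24 h, at 10 D and between 10 D and 24 h. With the pool number as a replicate block, *Srxn1* 1451680_at gave 2.76 (adjusted *P* = 0.066), members called stayed at 1, and 209 probe sets were called in place of 154. Departures of same-numbered pools from their group means correlated at -0.072 to 0.56 on MOE430A and -0.025 to 0.16 on MOE430B, over 0.1 in 2 of 9 pairs on each, those of the treated pools 1 and of the treated pools 2. Among list genes, *Mt2* lost its call without moderation (0.16) and without the C pool 1 (0.19), the C pool 2 (0.18) or the 24 h pool 1 (0.1), and *S100a8* without moderation (0.2) and without the C pool 1 or 3 or any 24 h pool (0.11 to 0.16). *Slc7a5* at 10 D was called with the replicate block (0.095) and within chip (0.084). Signals near the filter, such as those of *Hmox1* and *Slc7a11*, limit what 3 pools can show.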
